A study of Mus musculus with 6 samples.

Results

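The genes described here carry water and urea across the kidney tubule or control that transport. They are the aquaporins Aqp1, Aqp2, Aqp3, Aqp4, Aqp6, Aqp7 and Aqp11, the vasopressin receptor Avpr2, the urea transporter Slc14a2 and the uromodulin gene Umod. They were taken by name from the deposited table, which held all 10 of them among its 17550 genes. Poly(A)-selected bulk RNA was sequenced from homogenized kidneys, flushed with saline, of KC-Tie2 mice (3 libraries) and Control mice (3 libraries). KC-Tie2 mice carry a transgene that makes keratinocytes of the skin express the angiopoietin receptor Tie2 and serve to model psoriasis; the Control mice are labelled only as such, and the authors' comparison table heads its comparison group WT. Neither sex, strain nor age is stated, nor whether libraries come from different animals, and the p-values then reflect only the scatter among these libraries, which may be technical.

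The kidney concentrates urine by building a salt and urea gradient in the medulla and letting water leave the tubule along it. The thick ascending limb pumps salt without water, and vasopressin then opens the collecting duct: its receptor, encoded by Avpr2, raises cyclic AMP, which moves Aqp2 water channels to the apical membrane and raises Aqp2 transcription. Water leaves the cell on the blood side through Aqp3 and Aqp4, and Slc14a2 lets urea pass into the inner medulla.

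Values are normalized counts as the authors deposited them. The libraries summed to 23647811, 24604088 and 25155944 in KC-Tie2 replicates 1 to 3 and to 25378411, 24288853 and 25495455 in Control replicates 1 to 3. Each listed gene averaged at least 373 over the 6 libraries, so all 10 passed the filter on low values. One normalized count step, the value of a single estimated read, was 1.11, 0.83 and 0.91 in KC-Tie2 and 1.05, 0.83 and 1.35 in Control libraries, so Control replicate 3 was the shallowest. The Y-linked gene Ddx3y was detected in every library, at 668 to 935 in KC-Tie2 and 859 to 1006 in Control kidneys. Xist, the RNA of the inactive X chromosome, had 38.2, 25.6 and 241 in KC-Tie2 and 98.4, 89.3 and 415 in Control libraries, so that replicate 3 of each genotype stood apart. Log2 fold changes are KC-Tie2 minus Control on the log2(value + 1) scale, given as estimate ± SE. A gene was called at a limma adjusted p under 0.05 over the 17539 genes tested, which 1.69% of them met (0.855% higher and 0.838% lower in KC-Tie2).

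None of the 10 genes was called (limma, Benjamini-Hochberg over all genes). At an unadjusted p under 0.05 there were 6, 5 of them higher in KC-Tie2 kidneys, where 15.3% of all genes tested passed that limit in either direction and 7.57% passed it as higher. Their median log2 fold change was 0.27, against 0.0012 over all genes tested, and 9 of the 10 estimates were above 0. In 4 of the genes, Avpr2, Aqp2, Aqp3 and Slc14a2, the 3 KC-Tie2 libraries all lay above the 3 Control libraries, which was so for 9.96% of all genes. The authors' deposited table, made with their own test, called 2 of the 10 at an FDR under 0.05, Slc14a2 and Avpr2, both as higher, where 3.91% of its genes were called and 1.83% were called as higher. All 4 of these genes act in the collecting duct. The proximal tubule channels Aqp1 and Aqp7 differed by less than the spread between libraries.

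**Figure D1:**
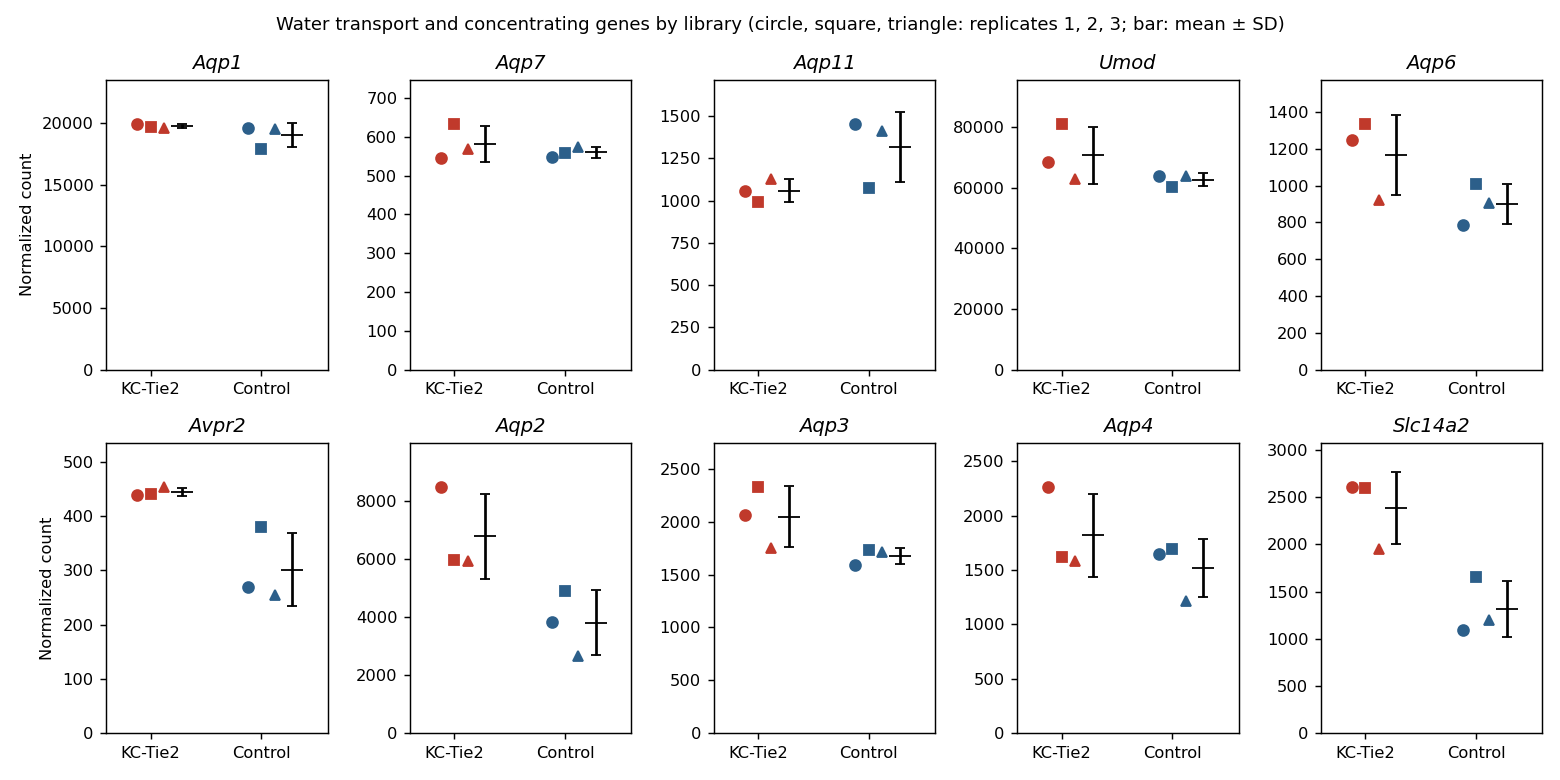
Normalized count (vertical axis, from 0) of each of the 10 genes in the 3 KC-Tie2 (red, left) and 3 Control (blue, right) libraries, with the mean ± SD in black. In Avpr2, Aqp2, Aqp3 and Slc14a2 every KC-Tie2 point lies above every Control point, and in Aqp1 and Aqp7 the groups overlap.

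Per kilobase of annotated exon, the scale on which genes can be compared with each other, Umod was the most abundant of the 10, at 25618 ± 3400 in KC-Tie2 and 22696 ± 791 in Control kidneys (normalized counts per kilobase, SD, n = 3 each). Aqp1 came next with 7517 ± 65.2 and 7237 ± 368, then Aqp2 with 4777 ± 1029 and 2674 ± 785, and Aqp3 with 1122 ± 157 and 918 ± 42.8. Neighbours in this upper part of the order did not overlap within a genotype. The other 6 genes lay between 88.4 and 551 per kilobase over all libraries. Among them Aqp6 and Slc14a2 overlapped in the KC-Tie2 kidneys, and Slc14a2 and Aqp4, Aqp4 and Aqp7, and Aqp11 and Avpr2 overlapped in the Control kidneys. Lengths are the union of exons in GENCODE vM21 on GRCm38, which can exceed the transcript a cell makes, so the order of the lower 6 is only approximate.

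Aqp1 is the constitutive water channel of the proximal tubule and thin descending limb (ENSMUSG00000004655, chromosome 6, 55313417 to 55325540, mm39). It had 19935, 19705 and 19600 normalized counts in KC-Tie2 replicates 1 to 3, against 19630, 17897 and 19505 in Control replicates 1 to 3. The groups overlapped, with Control replicate 2 alone below the rest. Its log2 fold change was 0.056 ± 0.073 (limma adjusted p = 0.789), and 0.013 without Control replicate 2.

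Aqp7, an aquaglyceroporin of the straight proximal tubule that also carries glycerol (chromosome 4, 41033074 to 41048139), had 545, 634 and 568 normalized counts in KC-Tie2 and 547, 558 and 575 in Control kidneys. All but KC-Tie2 replicate 2 lay within a narrow band. Its log2 fold change was 0.053 ± 0.085 (limma adjusted p = 0.835). Aqp7 is also the glycerol channel of fat cells, and fat cell markers varied widely between libraries: Plin1, the lipid droplet protein perilipin, had 291, 1.67 and 23.6 in KC-Tie2 and 446, 29.7 and 9.47 in Control kidneys. The part of fat cells in the Aqp7 values was not tested.

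Aqp11, an intracellular channel of the proximal tubule whose loss causes cystic kidneys in mice (chromosome 7, 97373213 to 97387496), was the only one of the 10 with a log2 fold change below 0. It had 1058, 990.3 and 1127 normalized counts in KC-Tie2 and 1453, 1076 and 1414 in Control kidneys. Control replicate 2 lay within the KC-Tie2 range, and the other Control libraries lay above it. The log2 fold change of Aqp11 was -0.30 ± 0.11 (limma adjusted p = 0.222, unadjusted p = 0.021). Without Control replicate 1 it was -0.22, and without Control replicate 2 it was -0.44 and was called (limma adjusted p = 0.0189, range 0.0189 to 0.522 over the alternatives).

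Proximal tubule markers gave a mixed picture beside these channels. Of 9, 4 had an estimate above 0 and 5 below, none was called, and their median log2 fold change was -0.046. An unadjusted p under 0.05 was reached by 4, which split evenly into 2 above and 2 below 0. Those above 0 had the smallest p-values of the list: Slc5a12, a lactate transporter, had 9262 ± 884 in KC-Tie2 and 7599 ± 322 in Control kidneys (limma adjusted p = 0.123), and the creatine synthesis enzyme Gatm had 15940 ± 2608 and 11918 ± 1368 (limma adjusted p = 0.17). Gatm overlapped between the genotypes. Without overlap, 1 marker, Slc5a12, was higher and 3 were lower in KC-Tie2 kidneys. Among the lower ones were Slc34a1 (log2 fold change -0.22, limma adjusted p = 0.224) and Hnf4a (-0.20, limma adjusted p = 0.245), the 2 below 0 at an unadjusted p under 0.05. The summed level of the 9 markers was 325257 to 380348 in KC-Tie2 and 376960 to 402113 in Control kidneys. In the straight part, 1 of 6 markers rose and none fell, and 5 of the 6 estimates were below 0 (median -0.31). An unadjusted p under 0.05 was reached by 4, 3 of them lower in KC-Tie2 kidneys without overlap: Acy3 (log2 fold change -0.85, limma adjusted p = 0.0684), Atp11a (-0.47, limma adjusted p = 0.16) and Slc7a13 (-1.12, limma adjusted p = 0.204), chosen after their values were seen. The one that rose was Slc5a10, a sodium-coupled sugar transporter, with 4520 ± 570 in KC-Tie2 and 2779 ± 280 in Control kidneys (log2 fold change 0.70 ± 0.10, limma adjusted p = 0.012).

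Umod encodes uromodulin, the most abundant protein of normal urine, which thick ascending limb cells secrete (ENSMUSG00000030963, chromosome 7, 119061934 to 119078505). It ranked 17 among the 13637 protein-coding genes of the table by mean normalized count.

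Umod had 68422, 81134 and 62794 normalized counts in KC-Tie2 and 63927, 60188 and 64016 in Control kidneys. The groups overlapped, since KC-Tie2 replicate 3 lay below Control replicates 1 and 3, and KC-Tie2 replicate 2 was the highest. For Umod the log2 fold change was 0.17 ± 0.099 (limma adjusted p = 0.468), and it was 0.064 without KC-Tie2 replicate 2 and 0.25 without KC-Tie2 replicate 3. Hpn, the protease hepsin that releases uromodulin from the membrane, had 5362 ± 315 in KC-Tie2 and 5708 ± 440 in Control kidneys (limma adjusted p = 0.656), a difference within the spread between libraries.

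Thick ascending limb markers other than Umod gave no call. Among the 9, 7 had an estimate above 0, 4 passed an unadjusted p under 0.05, all of them higher, and the median log2 fold change was 0.24. The sodium-potassium-chloride cotransporter gene Slc12a1, the target of loop diuretics, had 32896, 41527 and 31881 in KC-Tie2 and 24781, 28662 and 30290 in Control kidneys, with no overlap (log2 fold change 0.34 ± 0.11, limma adjusted p = 0.171). Ptger3, the prostaglandin receptor that opposes vasopressin in this segment, had 2343 ± 454 in KC-Tie2 and 1501 ± 131 in Control kidneys (log2 fold change 0.63 ± 0.13, limma adjusted p = 0.0634). In the wider list for salt transport and urea, 11 of 12 tested genes had an estimate above 0 and none was called (median 0.21), with 6 passing an unadjusted p under 0.05, all higher. Among them was Stk39, the kinase SPAK that activates the cotransporter (854 ± 47.5 in KC-Tie2 and 674 ± 58.2 in Control, limma adjusted p = 0.0722).

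Avpr2 is the vasopressin receptor of the collecting duct and thick ascending limb (ENSMUSG00000031390, chromosome X, 72935708 to 72939108). It had 439.8, 441 and 454 normalized counts in KC-Tie2 and 270.2, 379.6 and 255 in Control kidneys. The KC-Tie2 libraries were nearly alike and above all Control libraries, of which replicate 2 was the highest. The log2 fold change of Avpr2 was 0.58 ± 0.14 (limma adjusted p = 0.0655, unadjusted p = 0.00137). In the authors' deposited table its ratio of KC-Tie2 to WT means was 1.47 with an FDR of 0.0191. Without Control replicate 3 the estimate was 0.47, and without Control replicate 2 it was 0.76 and was called (limma adjusted p = 0.0079, range 0.0079 to 0.237 over the alternatives). Its value is uncertain for another reason: in GENCODE vM21, 81.3% of its exon bases (2347 of 2886) are also exon bases of Arhgap4 on the opposite strand. No source used here states whether counting used strand. Arhgap4 had 271 ± 11.2 in KC-Tie2 and 214 ± 36.9 in Control kidneys, with no overlap (limma adjusted p = 0.244), and its part in the Avpr2 difference was not tested.

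Aqp2, the vasopressin-regulated water channel of principal cells (ENSMUSG00000023013, chromosome 15, 99476936 to 99482428), lies on the same strand as Aqp6. Its promoter is shown because cyclic AMP acts on it through CREB and because GATA factors mark the collecting duct. The window is RefSeq's on GRCm38.p6, chr15:99578806-99579105, plus strand, from 250 bases before the annotated start to 50 after it, and the capitals mark CGTCA, which reads TGACG on the other strand and is the core of the CREB site, and TTATCT, which reads AGATAA on the other strand and is a GATA site.
Aqp2: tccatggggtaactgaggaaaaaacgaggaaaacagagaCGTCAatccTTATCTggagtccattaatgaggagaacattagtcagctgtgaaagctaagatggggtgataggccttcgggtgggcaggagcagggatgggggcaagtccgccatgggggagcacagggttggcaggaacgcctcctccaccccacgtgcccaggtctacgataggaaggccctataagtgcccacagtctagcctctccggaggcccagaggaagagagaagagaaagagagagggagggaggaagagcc
The capitals begin 211 and 202 bases before the start and do not overlap. On either strand, TGACG occurred in 20.8% and AGATAA in 11.2% of all 32851 windows. Windows were read for 8 of the 10 genes. Besides these matches, AGATAA occurred in 1 of the windows of Aqp7, and the windows of Aqp1, Aqp3, Aqp6, Aqp11, Avpr2 and Umod held neither motif.

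Aqp2 had 8464, 5953 and 5917 normalized counts in KC-Tie2 and 3835, 4888 and 2660 in Control kidneys. The groups did not overlap, with KC-Tie2 replicate 1 well above the other KC-Tie2 libraries and the Control libraries spread almost evenly. The estimate for Aqp2 was a log2 fold change of 0.86 ± 0.28, a 1.81-fold difference (limma adjusted p = 0.254, unadjusted p = 0.0282). In the authors' deposited table the ratio for Aqp2 was 1.79 with an FDR of 0.105. With each library left out in turn the estimate lay between 0.63 and 1.06 and was never called.

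Aqp3, the main basolateral water channel of principal cells (chromosome 4, 41092722 to 41098183), had 2071, 2329 and 1757 normalized counts in KC-Tie2 and 1589, 1734 and 1713 in Control kidneys. KC-Tie2 replicate 3 lay just above the highest Control library. For Aqp3 the log2 fold change was 0.28 ± 0.095 (limma adjusted p = 0.179). Without KC-Tie2 replicate 2 it was 0.18, and without KC-Tie2 replicate 3 it was 0.39 and was called (limma adjusted p = 0.0259, range 0.0259 to 0.511 over the alternatives).

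Aqp4, the other basolateral channel, found mostly in the inner medulla (chromosome 18, 15522553 to 15544039), had 2261, 1616 and 1581 normalized counts in KC-Tie2 and 1646, 1692 and 1212 in Control kidneys. The groups overlapped: KC-Tie2 replicate 1 was the highest library and Control replicate 3 the lowest, and among the other 4 both KC-Tie2 values lay below both Control values. Its log2 fold change was 0.26 ± 0.19 (limma adjusted p = 0.603). The estimate for Aqp4 was 0.092 without KC-Tie2 replicate 1 and 0.10 without Control replicate 3.

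Slc14a2 encodes the urea transporters of the inner medullary collecting duct and thin descending limb (ENSMUSG00000024552, chromosome 18, 78189363 to 78640157). It had 2607, 2603 and 1949.8 normalized counts in KC-Tie2 and 1090.4, 1653 and 1196 in Control kidneys. The groups did not overlap, with KC-Tie2 replicate 3 and Control replicate 2 nearest to each other. The estimate for Slc14a2 was a log2 fold change of 0.87 ± 0.19, a 1.83-fold difference (limma adjusted p = 0.106, unadjusted p = 0.00395). In the authors' deposited table its ratio was 1.81 with an FDR of 1.69e-06. It was called without KC-Tie2 replicate 3 (estimate 1.01) and without Control replicate 2 (1.05), the estimate was 0.75 without Control replicate 1, and its limma adjusted p ranged from 0.00815 to 0.327 over the alternatives.

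Aqp6, an intracellular channel of acid-secreting intercalated cells (chromosome 15, 99499281 to 99503358), had 1246, 1335 and 923 normalized counts in KC-Tie2 and 787, 1008 and 905 in Control kidneys. KC-Tie2 replicates 1 and 2 lay above all Control libraries and replicate 3 did not. The log2 fold change of Aqp6 was 0.37 ± 0.15 (limma adjusted p = 0.299). Without KC-Tie2 replicate 2 it was 0.26, and without KC-Tie2 replicate 3 it was 0.53 and was called (limma adjusted p = 0.0223, range 0.0223 to 0.603 over the alternatives).

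**Figure D2:**
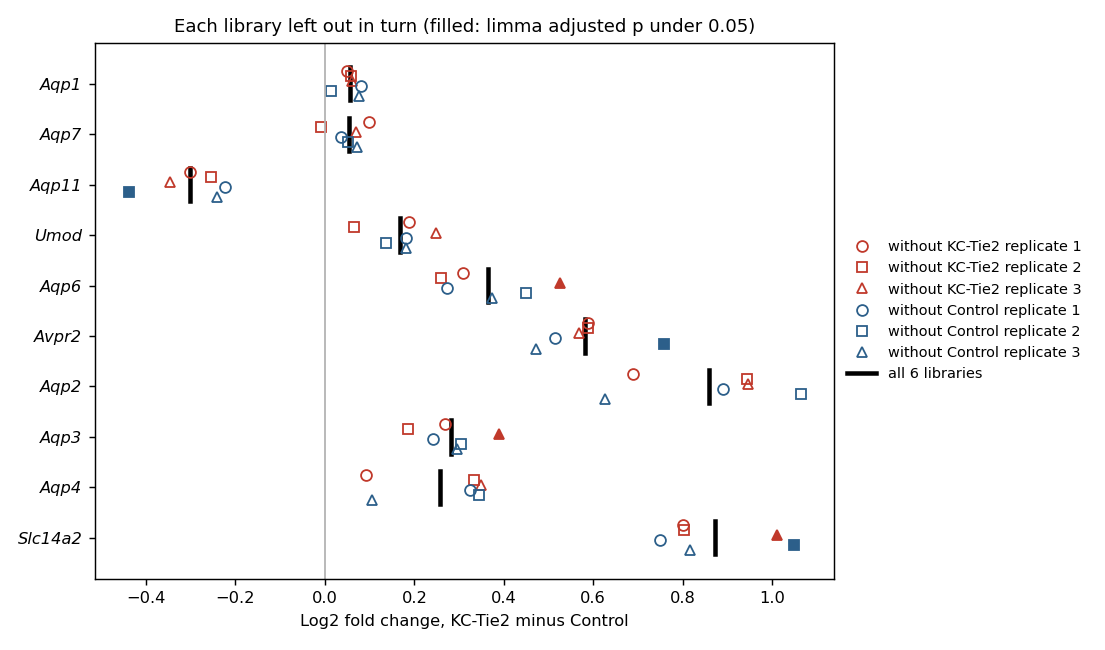
Log2 fold change of each gene (horizontal axis) with all 6 libraries (black bar) and with each library left out in turn (red, a KC-Tie2 library left out, and blue, a Control library, with filled symbols where the limma adjusted p was under 0.05). Filled symbols occur only where KC-Tie2 replicate 3 or Control replicate 2 was left out, and all but 1 of the estimates, that of Aqp7 without KC-Tie2 replicate 2, kept their side of 0.

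Several markers of the cells that hold these genes rose in KC-Tie2 kidneys. In bulk kidney, more cells of a type and more RNA per cell cannot be told apart. Of 11 principal cell markers, 10 had an estimate above 0, 6 passed an unadjusted p under 0.05, 2 rose and none fell (median log2 fold change 0.25). The genes that rose were Kcne1, a potassium channel subunit (600 ± 118 in KC-Tie2 and 385 ± 23 in Control, log2 fold change 0.62 ± 0.13, limma adjusted p = 0.0359), and Scnn1b, a subunit of the sodium channel ENaC (1261 ± 157 and 937 ± 46.3, log2 fold change 0.42 ± 0.092, limma adjusted p = 0.0444). The summed level of the 11 markers was 14053 to 16720 in KC-Tie2 and 12064 to 13140 in Control kidneys.

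All 10 intercalated cell markers had an estimate above 0, 7 at an unadjusted p under 0.05, and 1 rose (median 0.25). It was Oxgr1, the receptor for oxoglutarate (907 ± 35.5 in KC-Tie2 and 717 ± 35.7 in Control, limma adjusted p = 0.0464). The 10 summed to 11156 to 12450 in KC-Tie2 and 9819 to 10877 in Control kidneys. Of 5 distal convoluted tubule markers, 4 had an estimate above 0 (median 0.22) and 1 rose, the magnesium channel gene Trpm6 (1183 ± 79.4 and 915 ± 18.1, limma adjusted p = 0.0309). Of 6 thin limb markers, 3 had an estimate above 0 and 3 below (median 0.099), and 1 rose, the activin inhibitor follistatin gene Fst (203 ± 36.2 and 88.7 ± 25.1, limma adjusted p = 0.021). These calls rest on few libraries: of the 6 risen segment markers, Slc5a10 included, 1, 0 and 5 were called without KC-Tie2 replicates 1, 2 and 3, and 0, 4 and 2 without Control replicates 1, 2 and 3.

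**Figure D3:**
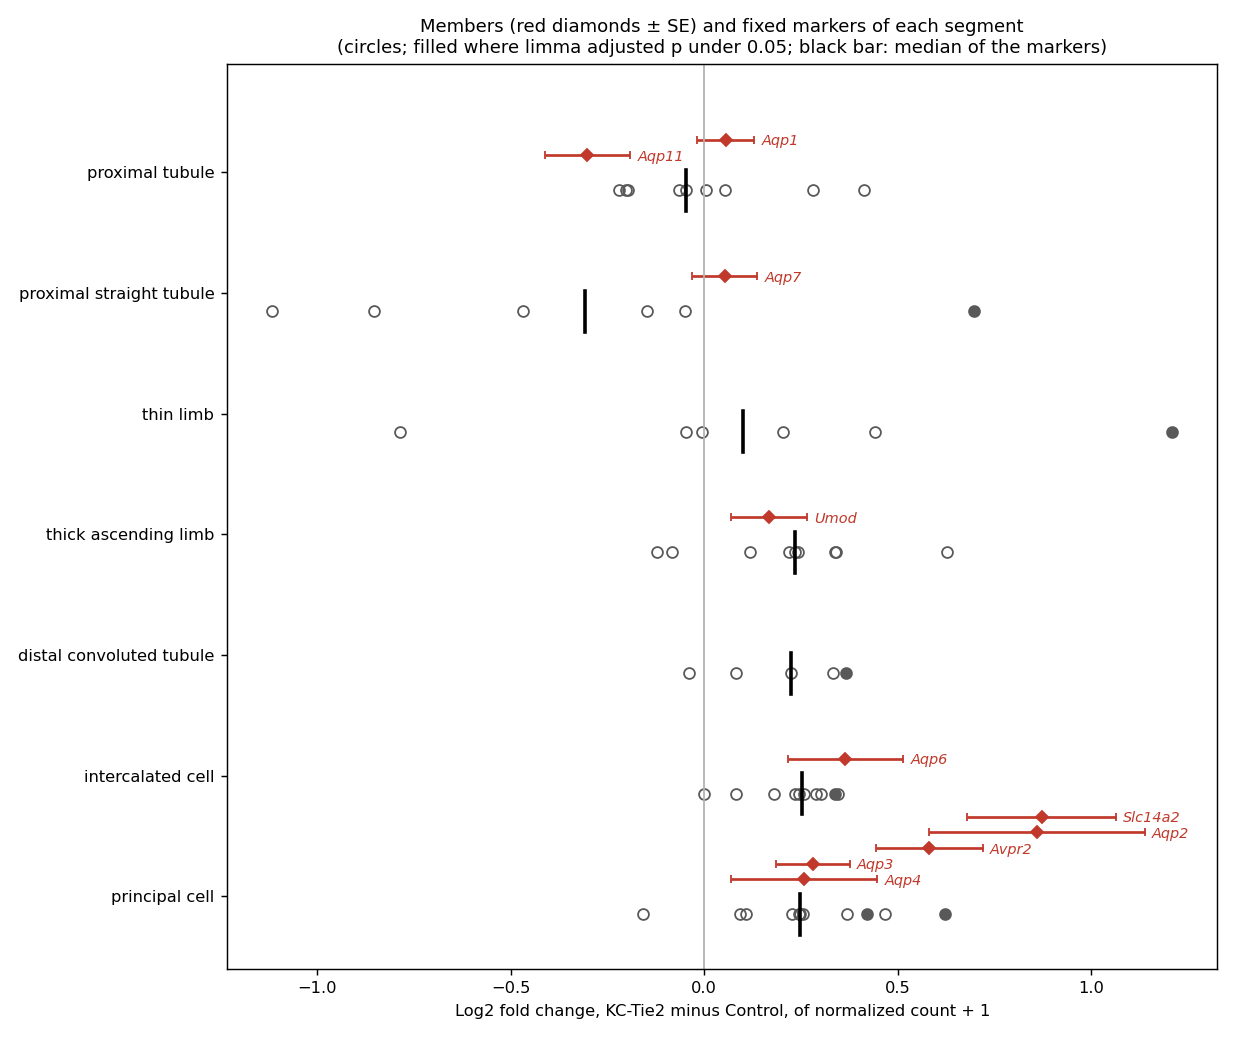
Log2 fold change (horizontal axis, KC-Tie2 minus Control) of the 10 genes (red diamonds with SE) above the markers of the nephron segment that holds them (circles, filled where called, with the median as a black bar). Slc14a2, Aqp2 and Avpr2 lie to the right of the principal cell median of 0.25, and Aqp3 and Aqp4 lie close to it.

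Set against principal cell markers in each library, 3 of the 5 collecting duct genes lay higher in KC-Tie2 kidneys and the other 2 did not. Avpr2 is also expressed in the thick ascending limb and Slc14a2 in the thin descending limb, which these markers do not cover. On the log2 scale, Aqp2 exceeded the mean of the 11 principal cell markers by 3.31, 2.84 and 2.97 in KC-Tie2 and by 2.53, 2.69 and 2.10 in Control kidneys, a difference of 0.60. For Slc14a2 the excess was 1.61, 1.64 and 1.37 in KC-Tie2 and 0.72, 1.13 and 0.95 in Control kidneys, a difference of 0.61. Avpr2 lay below the markers, at -0.95, -0.92 and -0.73 in KC-Tie2 and -1.29, -0.99 and -1.27 in Control kidneys, a difference of 0.32. In these 3 genes the groups did not overlap and the two-sided exact permutation p was 0.1, the smallest that 3 against 3 libraries can give (0.333 adjusted over the 10 genes). Aqp3 and Aqp4 differed by 0.017 and -0.0055 relative to the same markers, with overlapping groups (exact permutation p = 0.7 and 0.9). Relative to the marker list assigned to each, Umod (-0.047), Aqp6 (0.14), Aqp1 (0.053), Aqp7 (0.38) and Aqp11 (-0.30) overlapped between the genotypes, with exact permutation p from 0.2 to 0.9.

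**Figure D4:**
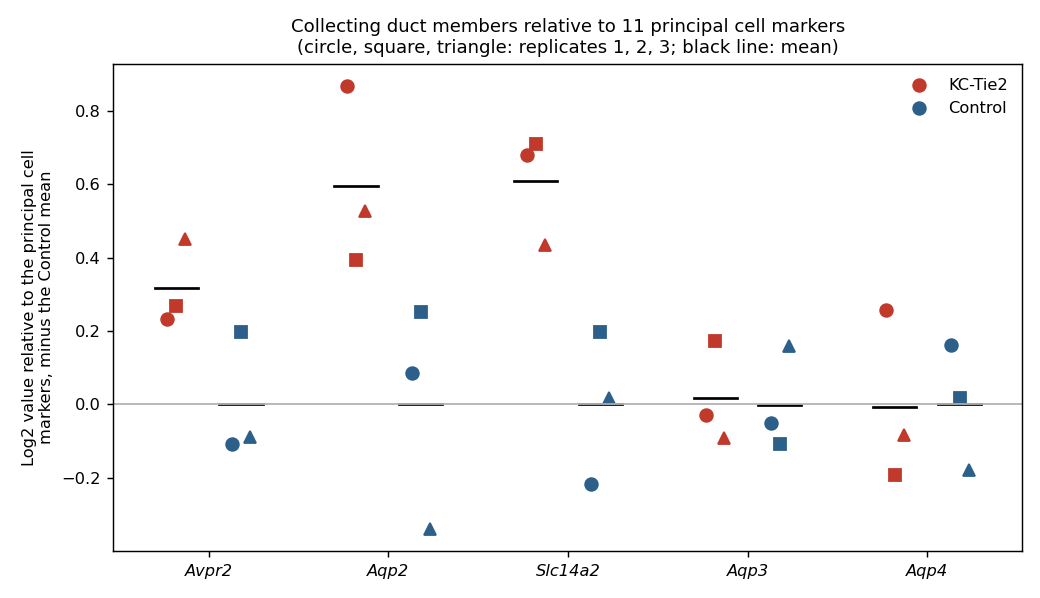
Log2 value of each collecting duct gene minus the mean of 11 principal cell markers in the same library, with the Control mean of the gene set to 0 (vertical axis), in KC-Tie2 (red, left) and Control (blue, right) libraries. In Avpr2, Aqp2 and Slc14a2 the KC-Tie2 points lie above all Control points, and in Aqp3 and Aqp4 they overlap.

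Ratios between the collecting duct genes within a library, which a single factor per library cannot change, were compared for all 10 pairs, a choice made after the values were seen. The ratio of Aqp2 to Aqp4 was 3.74, 3.68 and 3.74 in KC-Tie2 and 2.33, 2.89 and 2.19 in Control kidneys. It was almost the same in the 3 KC-Tie2 libraries, of which replicates 2 and 3 were also alike in the levels of both genes and only replicate 1 differed. The ratio was above every Control ratio in each of them (log2 difference 0.60, exact permutation p = 0.1, adjusted p = 0.333 over the 10 pairs). The ratio of Aqp3 to Slc14a2 was 0.79, 0.89 and 0.90 in KC-Tie2 and 1.46, 1.05 and 1.43 in Control kidneys, and that of Aqp4 to Slc14a2 was 0.87, 0.62 and 0.81 in KC-Tie2 and 1.51, 1.02 and 1.01 in Control kidneys, both below all Control ratios (exact permutation p = 0.1 each). The ratio of Aqp2 to Slc14a2 overlapped, at 3.25, 2.29 and 3.03 in KC-Tie2 and 3.52, 2.96 and 2.22 in Control kidneys (log2 difference -0.013), as did those of the remaining 6 pairs.

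The vasopressin pathway beyond its receptor showed no called gene. Among 13 tested signalling genes, 7 had an estimate above 0 and 6 below (median 0.0018), and 1 passed an unadjusted p under 0.05. That was Avpr1a, another vasopressin receptor, with 321, 338 and 342 in KC-Tie2 and 236, 320 and 226 in Control kidneys (log2 fold change 0.37 ± 0.14, limma adjusted p = 0.207). Prkar2a, a regulatory subunit of protein kinase A, had 1823 ± 68.2 in KC-Tie2 and 1671 ± 2.63 in Control kidneys (limma adjusted p = 0.379), and Adcy6, an adenylyl cyclase that makes cyclic AMP in this cell, had 4328 ± 245 and 4005 ± 250 (limma adjusted p = 0.525).

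Genes that move Aqp2 vesicles to and from the membrane gave 9 estimates above 0 and 11 below among 20, none called (median -0.013), 2 of them at an unadjusted p under 0.05. Ndfip1, an adaptor for the ubiquitin ligases of the NEDD4 family, was lower in all 3 KC-Tie2 libraries (3512 ± 163 in KC-Tie2 and 4096 ± 248 in Control, limma adjusted p = 0.16), and Ezr, which links membranes to actin, was higher (9049 ± 603 and 7930 ± 423, limma adjusted p = 0.261). Of 7 transcription factors of the collecting duct none was called, and none passed an unadjusted p under 0.05 (median 0.093). Among them Elf3 had 639 ± 98.1 in KC-Tie2 and 500 ± 130 in Control kidneys (limma adjusted p = 0.434) and Gata2 had 726 ± 48.5 and 670 ± 101 (limma adjusted p = 0.648).

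Of 11 local regulators of water transport, such as prostaglandin and endothelin receptors, 8 had an estimate above 0 and none was called (median 0.23). One passed an unadjusted p under 0.05, Ptger3, given above. P2ry2, a nucleotide receptor that dampens the response to vasopressin, had 256 ± 67.6 in KC-Tie2 and 194 ± 13.6 in Control kidneys (limma adjusted p = 0.38). The remaining aquaporins on the list, Mip, Aqp5, Aqp8, Aqp9 and Aqp12, were not analysed here.

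Of 10 genes that respond to high salt in the medulla, 6 had an estimate above 0, 1 passed an unadjusted p under 0.05 and none was called (median 0.062). Akr1b3, the aldose reductase that makes sorbitol in the inner medulla, had 2520, 390 and 1436 in KC-Tie2 and 1091, 1601 and 708 in Control kidneys (limma adjusted p = 0.984). Markers of the urothelium that lines the renal pelvis followed the same libraries, with sums of 302, 66.7 and 229.5 in KC-Tie2 and 231, 462 and 60.9 in Control kidneys. Among Control kidneys, Slc14a2, Aqp2, Aqp4, Avpr2 and Aqp3 were also highest in replicate 2, where Akr1b3 and the urothelial sum were highest. Aqp2, Aqp4 and Avpr2 ran in the same order as Akr1b3 over all 3. Among KC-Tie2 kidneys, replicate 1 was highest in Akr1b3, the urothelial sum, Aqp2 (8464), Aqp4 (2261) and Slc14a2 (2607). Replicate 2 was lowest in Akr1b3 and the urothelial sum. It had 5953 of Aqp2 and 1616 of Aqp4, close to the lowest values, 5917 and 1581 in replicate 3. Its 2603 of Slc14a2 was close to that of replicate 1, and replicate 3 had 1949.8. Aqp3 and Avpr2 did not follow Akr1b3 in the KC-Tie2 kidneys. Aqp3 was highest in replicate 2 (2329), where Akr1b3 was lowest. Avpr2 was nearly level, at 439.8, 441 and 454, and lowest in replicate 1, where Akr1b3 was highest. The part of unequal medulla in the collecting duct differences was not tested. Slc6a12, the betaine transporter of medullary cells, had 128, 153 and 74.4 in KC-Tie2 and 12.6, 56.2 and 20.3 in Control kidneys without overlap (log2 fold change 2.16 ± 0.55, limma adjusted p = 0.13). Another osmolyte-related transporter of the list, the amino acid carrier Slc38a2, had 2537 ± 333 and 2084 ± 393 (limma adjusted p = 0.447).

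Over the 6 libraries, the genes of the pathway and marker lists (152 with a mean of at least 50) included Slc6a12 as one whose log2 values ran nearly parallel to Slc14a2 (Pearson r = 0.990). The genes nearest to Avpr2 were Avpr1a (0.985) and Slc6a12 (0.935), and those nearest to Aqp2 were Vcam1 (0.977) and Adcy6 (0.955). For Aqp3 they were Ppp1r1a (0.974) and Scnn1g (0.971), for Aqp4 Ptger1 (0.993) and Adcy6 (0.962), for Aqp6 St6gal1 (0.964) and Cldn19 (0.955), and for Umod Casr (0.958) and Hsd11b2 (0.925). For the proximal channels they were Slc38a2 (0.889) and Atp1b1 (0.838) for Aqp1, Stx3 (0.859) and Kcnj1 (0.820) for Aqp7, and Rhoa (0.905) and Ndfip1 (0.898) for Aqp11. These are descriptions over 6 points that share library and genotype.

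Among the lists for other cell types and injury, only those of macrophages and tubular injury held genes at an unadjusted p under 0.05. The part of other cell types in the differences of the collecting duct genes was not tested. Of 7 macrophage markers all had an estimate above 0 and 3 rose, the C1q chain genes C1qa (limma adjusted p = 0.00742), C1qb (0.021) and C1qc (0.0449), and the 7 summed to 4976 to 7268 in KC-Tie2 and 3529 to 4581 in Control kidneys. C1qa was called with any library left out (highest limma adjusted p = 0.0461), whereas C1qb and C1qc were called only without KC-Tie2 replicate 3 or Control replicate 2. Of 7 tested tubular injury genes none was called, although Spp1, the osteopontin gene, had 58913, 81324 and 35940 in KC-Tie2 and 12659, 13480 and 10149 in Control kidneys (limma adjusted p = 0.0681), and Lcn2 had 118 ± 48.6 and 45.3 ± 19 (limma adjusted p = 0.134). The list summed to 38218 to 83564 in KC-Tie2 and 12095 to 16053 in Control kidneys, but most of each sum was Spp1. It made up 58913 of 61602 in KC-Tie2 replicate 1 and 12659 of 14773 in Control replicate 1. Of the 7 genes, 6 had an estimate above 0 and 3 passed an unadjusted p under 0.05. Only 2 of the 7, Spp1 included, were higher without overlap. Endothelial markers, relevant to Aqp1 in the vasa recta, summed to 10262 to 11373 and 10445 to 11290, with none of 7 called or at an unadjusted p under 0.05. Its smallest p-values belonged to Egfl7 (810 ± 105 in KC-Tie2 and 863 ± 99.5 in Control, limma adjusted p = 0.768) and Kdr (2154 ± 208 and 2231 ± 58.2, limma adjusted p = 0.805).

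Genes of red blood cells, which carry Aqp1 protein, and of fat cells varied widely between libraries. The 5 red blood cell genes summed to 5079, 973 and 4011 in KC-Tie2 and 1911, 2203 and 1474 in Control kidneys, none called or at an unadjusted p under 0.05. Hbb-bt had 227 ± 143 and 99.1 ± 30.9 (limma adjusted p = 0.491) and Alas2 86.9 ± 34.6 and 57.9 ± 13.8 (limma adjusted p = 0.443). The 5 fat cell genes in the table summed to 481 to 1760 in KC-Tie2 and 467 to 2540 in Control kidneys, Retn being at 0 in Control replicate 3, and none of the 5 was called or passed an unadjusted p under 0.05. Cidec had 54.3 ± 81.9 in KC-Tie2 and 138 ± 189 in Control kidneys (limma adjusted p = 0.749), and Retn had 24.6 ± 29.2 and 20.1 ± 32.7 (limma adjusted p = 0.802). Nor was any of the 4 urothelial and squamous genes in the table, where Upk1b had 65.8 ± 35.6 and 92.2 ± 66.4 (limma adjusted p = 0.907) and Upk2 had 23 ± 17.1 and 29 ± 23.9 (limma adjusted p = 0.976).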

How the data were processed

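The deposited values are a signal, normalized counts per gene, made by the authors. The submitters' processing notes list Partek 12.5.0, STAR, DESeq2 and mm39 without their roles. Of the values, 69.5% to 72.0% lay within 0.05 of a whole multiple of 1 step per library, so whole reads were not recovered and no count test was run. The authors' second deposited table gives, per the file headers, a p-value with FDR, a ratio and a signed fold score, of KC-Tie2 against a group headed WT, and it was quoted and not retested.

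Samples were grouped by label. Values were taken as log2(value + 1), and genes with a mean of at least 10 were fitted with limma 3.58.1 in R 4.3.3 (eBayes with trend and robust, two-sided, Benjamini-Hochberg over 17539 genes). The script was tested on simulated data. Per-library differences used exact permutation tests. Genes named besides the 10 are the called genes of each list (up to 4), or, in lists with no call, the 2 of smallest p, and the 2 most parallel to each of the 10. Results that need withheld genes are not reported here. Plin1, Akr1b3, Adcy6, Arhgap4, Slc34a1, Hnf4a, Acy3, Atp11a, Slc7a13, Xist and the Y-linked gene Ddx3y were named after their values were seen. The 10 genes, lists and motifs were chosen with earlier results of these data known. Promoters are RefSeq's (GRCm38.p6), and lengths GENCODE vM21's (GRCm38). Gene ends are given as 1 base before the stop in the deposited table. Alternatives tried were a pseudocount of 0.5 or 5, dropping the filter or raising it to a mean of 100, TMM scaling, equal library sums, quantile normalization, non-robust eBayes, weighted libraries, the replicate block and each library left out.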

Additional observations from a re-analysis of the deposited data

How the results depend on the processing

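With all 6 libraries none of the 10 genes was called, and none under both other pseudocounts, both other filters and the 3 other scalings. The number called was 2 with the replicate block (Avpr2 and Slc14a2), 1 with eBayes without robust (Slc14a2), 1 with library weights (Avpr2), and 0 to 3 with a library left out, the 3 being Aqp3, Aqp6 and Slc14a2 without KC-Tie2 replicate 3 and Aqp11, Avpr2 and Slc14a2 without Control replicate 2. Over all genes 297 genes were called, 581 with the replicate block, 549 with library weights and 48 to 682 with a library left out. The causes were not tested. Of the estimates, 1 changed sign, that of Aqp7 without KC-Tie2 replicate 2 (limma adjusted p = 0.989), the values with a library left out running between -0.0094 and 0.099. The replicate numbers were not taken to pair the samples: deviations of same-numbered libraries correlated at 0.18, -0.096 and 0.017. The scalings shifted the median of all genes by at most 0.035. With 3 libraries a genotype, the exact tests cannot go below 0.1.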
